A study of Mus musculus with 2 samples.

Results

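Microglia that carried microglial identity transcripts and were high in the stress transcripts Rrad, Ddit3, Sertad1 and Ier5 made up 226 of 2708 retinal cells, 166 from room air (RA) controls and 60 from mice with oxygen-induced retinopathy (OIR). They are called stress-high microglia here. Their choice started from base microglia, which had at most 20% of mitochondrial unique molecular identifiers (UMIs, each standing for 1 captured transcript) and at least 4000 UMIs in all. Base microglia also held a UMI of each of Malat1, P2ry12, Tmem119 and Siglech, and at most 1 UMI of Mrc1, Pf4, Top2a and Mki67 together. Stress-high microglia were selected on measured values, as the base microglia in the top 25% of their own library by the summed share of Rrad, Ddit3, Sertad1 and Ier5. Cells in the top 25% by the summed share of the cytokine transcripts Il1b, Tnf and Ccrl2, called cytokine-high cells, were left out.

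The study asked how retinal mononuclear phagocytes differ between mice with pathological vessel growth and controls. Live CD11b+ F4/80+ cells were sorted at postnatal day 17 from enzymatically dissociated retinas of C57BL/6j mice. The OIR pups had been kept in high oxygen and returned to room air, which is followed by new vessel growth in this model, and age-matched RA pups stayed in room air. Retinas were pooled into 1 library per condition, so condition and library cannot be told apart, and differences between them were not tested. All cells of both libraries had gone through warm enzymatic digestion and sorting before capture. No sample without these steps was analysed here, and their part in any stress transcript was not tested.

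Microglia are the resident macrophages of the nervous tissue, and in the retina they survey neurons and vessels. Cells under stress slow general protein synthesis through the integrated stress response, in which the transcription factor ATF4 accumulates and induces Ddit3, the gene of the factor CHOP. Immediate early genes, such as those of the Fos, Jun and Klf families, are transcribed within minutes of many stimuli and need no new protein for it. Rrad encodes a small GTPase of the RGK family, Sertad1 a regulator of cyclin-dependent kinase and transcription, Ier5 an immediate early protein linked to heat shock factor activity, and Tsc22d3 the glucocorticoid-induced leucine zipper protein.

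The RA library held 1449 cells with 12810892 UMIs and a median of 8607 UMIs per cell. The OIR library was shallower per cell, with 1259 cells, 9835402 UMIs and a median of 5254. The libraries shared 0 cell barcodes. Base microglia were 699 RA cells (48.2% of the library, 95% exact binomial interval 45.6 to 50.8%) and 285 OIR cells (22.6%, 20.4 to 25.1%). All intervals cover counting error only. The mitochondrial limit and the limit of 4000 UMIs together left 974 RA and 723 OIR cells, and the detection of the 4 identity genes left 756 and 389. The parts of depth and of expression in these counts were not tested.

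The 166 RA stress-high microglia held 1655465 UMIs, with a median of 9425.5 per cell against 11056 in the other 533 RA base microglia. The 60 OIR stress-high microglia held 494283 UMIs, with a median of 8130 against 9814 in the other 225. Stress-high microglia were thus the shallower cells in both libraries. Mitochondrial transcripts took 3.29% of their UMIs in RA against 4.45% in the other base microglia, and 3.81% against 5.08% in OIR. Ribosomal protein transcripts took 10.5% against 13.7% in RA, and 5.85% against 7.62% in OIR. Both fractions were lower in stress-high microglia of either library.

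Stress-high microglia were one end of a continuous range. The threshold stood at 2944 CPM (counts per 1000000 UMIs) of the 4 genes together in RA, where the nearest cells inside and outside had 2945 and 2943 CPM. In OIR the threshold was lower, at 2219 CPM, with the nearest cells at 2219 and 2211 CPM. Within 10% of the threshold lay 76 RA and 25 OIR base microglia. The score ran from 2945 to 9697 CPM among RA members (median 3875) and from 2219 to 10509 CPM among OIR members (median 3312). Of the base microglia past the threshold, 9 of 175 in RA (5.14%) and 12 of 72 in OIR (16.7%) were also high in cytokine transcripts and were therefore not members.

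The 4 score genes are described here with no test, since they chose the cells. The level of a gene in a group of cells is its count over all of those cells, in CPM. Rrad stood at 963 CPM in RA stress-high microglia against 247 CPM in the other base microglia, and at 651 against 130.3 CPM in OIR. Ddit3 stood at 236 against 70.4 CPM in RA and at 109 against 28.4 CPM in OIR. Sertad1 stood at 301 against 122 CPM in RA and at 265 against 85.8 CPM in OIR. Ier5 was the most abundant, at 2709.8 against 1132 CPM in RA and 2428 against 905 CPM in OIR. It supplied 64.4% of the score UMIs in RA and 70.3% in OIR, while Ddit3 supplied 5.60% and 3.16%. All 226 members held an Ier5 UMI. All 4 score genes were detected together in 103 of the 166 RA members and in 18 of the 60 OIR members, so most OIR members were chosen on fewer than 4 of them.

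Tsc22d3, which took no part in the choice but was known as a marker from earlier results of these data, was also higher. It stood at 241 CPM in RA stress-high microglia and 112 CPM in the other base microglia, a log2 ratio of 1.10 (95% exact conditional interval 0.92 to 1.28). In OIR it stood at 281 against 70.9 CPM, a log2 ratio of 1.99 (1.65 to 2.32). With every cell thinned to 4000 UMIs, a Tsc22d3 UMI was found in 51.2% of RA members against 26.3% of the other base microglia (69.3% and 48.8% unthinned). The thinned shares in OIR were 46.7% and 24.9% (65.0% and 42.2% unthinned). Among rod-like cells, the photoreceptors caught in the sort, 55 RA and 35 OIR cells were deep enough to thin. Of these, 3.64% in RA and 11.4% in OIR held a Tsc22d3 UMI. The median depths of all rod-like cells were 1807 and 1206 UMIs. The Tsc22d3 shares in stress-high microglia lay above those of rod-like cells in both libraries. Rod-like cells were chosen to hold no UMI of Cx3cr1, Csf1r or C1qa, so they may understate how much microglial RNA other cells pick up. The thinned Ddit3 share in OIR members, 33.3%, did not lie above that of rod-like cells, 34.3%. Whether rod-like cells transcribe Ddit3 themselves or carry its RNA from other cells was not tested.

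**Figure D1:**
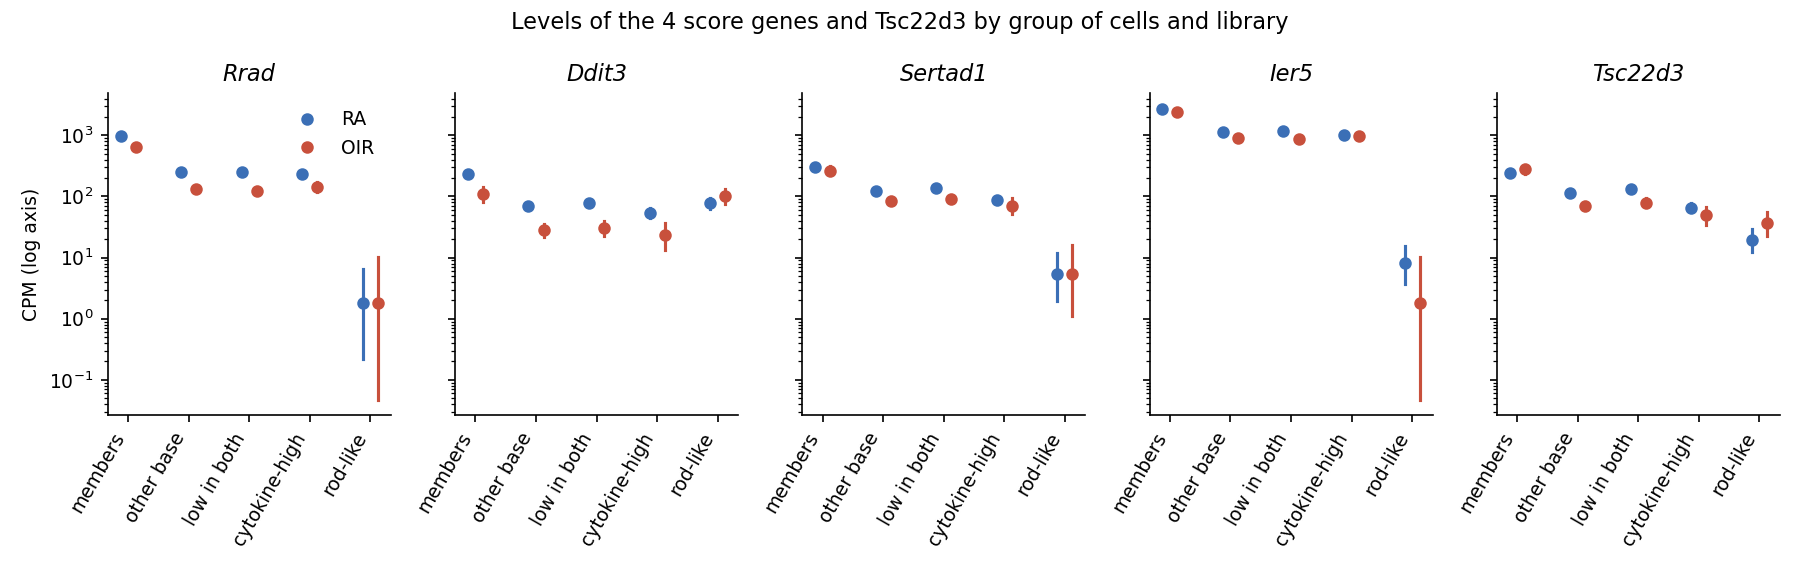
Levels of the 4 score genes and Tsc22d3 in 5 groups of cells (vertical log axis, CPM; blue RA, red OIR; bars, 95% exact Poisson intervals of the counts). Members lie above the 3 groups of other microglia in each panel, by the rule in the first 4 panels; Ddit3 of rod-like cells, at 77.2 CPM in RA and 100.3 CPM in OIR, lies near the OIR members.

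Each score gene was also measured in cells chosen without it, by the remaining 3 score genes. Cells chosen without Rrad held 712 CPM of Rrad in RA against 317 CPM in the rest, a log2 ratio of 1.17 (1.06 to 1.27). In OIR the values were 524 and 158 CPM, a log2 ratio of 1.73 (1.5 to 1.96). The log2 ratio of Ddit3 in cells chosen without it was 1.34 in RA and 1.52 in OIR, and that of Sertad1 was 1.08 and 1.44. Ier5 gave the lowest ratios, 0.61 and 0.74. The cells were also chosen on a random 50% of each cell's UMIs and measured on the remaining UMIs. All score genes stayed in the score here, so their ratios follow in part from the choice and are no independent check. The log2 ratio of Rrad was 1.85 in RA and 2.04 in OIR. That of Ddit3 was 1.55 and 1.44, that of Sertad1 0.97 and 1.53, and that of Ier5 1.03 and 1.07. Tsc22d3, which is outside the score, had log2 ratios of 1.19 in RA and 1.66 in OIR.

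Homeostatic genes had a median ratio near that of all genes between stress-high and other base microglia. P2ry12, the purinergic receptor that guides microglial processes and 1 of the genes that base microglia had to hold, stood at 1507 against 1453 CPM in RA and 1230.1 against 998 CPM in OIR. Cx3cr1, the fractalkine receptor, stood at 2121 against 2025 CPM in RA and at 985 against 860 CPM in OIR. The median log2 ratio of 25 homeostatic genes outside the rule was -0.04 in RA and 0.09 in OIR, against 0.07 and 0.04 over all 2712 genes compared. Single genes of the list ranged from -0.34 to 0.52 in RA and from -0.45 to 0.93 in OIR. The summed list went in opposite directions in the libraries, by small amounts. It stood at 60059 against 64574 CPM in RA, a log2 ratio of -0.10 (-0.11 to -0.09). In OIR it stood at 69474 against 66891 CPM, a log2 ratio of 0.05 (0.04 to 0.07). Of the list, 0 genes reached 1.5-fold in both libraries, beside 3.13% higher and 0.959% lower of all genes.

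Transcripts of other cell types were summed by list. Of 12 rod genes the summed level was 187 CPM in RA stress-high microglia against 562 in the other base microglia, and 76.9 against 253 CPM in OIR. Sag, rod arrestin, stood at 24.8 against 95.8 CPM in RA and at 28.3 against 58.5 CPM in OIR, where it was the most abundant rod gene. Its RA log2 ratio of -1.95 became -0.29 without the cells called doublets and -0.86 without the cells with the most genes, so its size depended on these cells. In RA the rod sum was 797 CPM in the base microglia low in both scores and 75.4 CPM in the cytokine-high cells, so that stress-high microglia lay between them, and in OIR it was 195 and 398 CPM. The part of rod transcripts in the other ratios was not tested. The 8 macrophage genes summed to 95.4 against 91.6 CPM in RA and to 221 against 151 CPM in OIR, a log2 ratio of 0.54 (0.22 to 0.86), mostly from Stab1 (87.6 and 172 CPM), which microglia also express, and Cd163 and Lyve1 were at 0 in both. The 9 monocyte genes summed to 41.7 against 124 CPM in RA and to 593 against 985 CPM in OIR, where Lyz2 supplied 534 CPM, and Ccr2 was at 0 in both. The 8 genes of Mueller glia and astrocytes summed to 767 against 619 CPM in RA and to 858 against 651 CPM in OIR, mostly from Glul, glutamine synthetase, which microglia also express, while Aqp4 and Gfap were at 0 in members of both libraries. Glul stood at 719 against 573 CPM in RA and at 817 against 612 CPM in OIR, so the difference in the glial sum lay almost wholly in this gene, which had a UMI in 163 of 166 RA members and 59 of 60 OIR members. Of 6 neutrophil genes, 1 was read in RA members (Retnlg, 5 UMIs) and 0 in OIR members. Cd3e of T cells was at 0 in members of both libraries. A count of 0 allows up to 1.81 CPM in the RA members and 6.07 CPM in the OIR members, taking 3 UMIs per group as the limit.

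Genes outside both scores were then compared between stress-high and other base microglia of the same library. A gene counted as higher or lower if it differed at least 1.5-fold in the same direction in both libraries, among 2712 genes with 50 CPM or more in 1 of the 2 groups in both. Of these, 85 genes were higher (3.13%) and 26 were lower (0.959%). With members chosen within 5 classes of cells by depth, 47 genes were higher, 37 of them among the 85. With 1 library per condition and cells that are not replicates, no test was run. The counts in each direction depended in part on the scaling. With ratios centred on the median gene the counts were 54 higher and 40 lower, and with ribosomal protein and mitochondrial UMIs left out of the totals they were 56 and 49.

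Because cytokine-high cells stood only in the comparison group, the members were also set against the 358 RA and 153 OIR base microglia that were low in both scores. Here 59 genes were higher (2.17%) and 19 were lower (0.699%) of 2720. The comparisons shared 52 higher genes, 61.2% of the 85 and 88.1% of the 59. They shared 17 lower genes, 65.4% of the 26 and 89.5% of the 19.

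**Figure D2:**
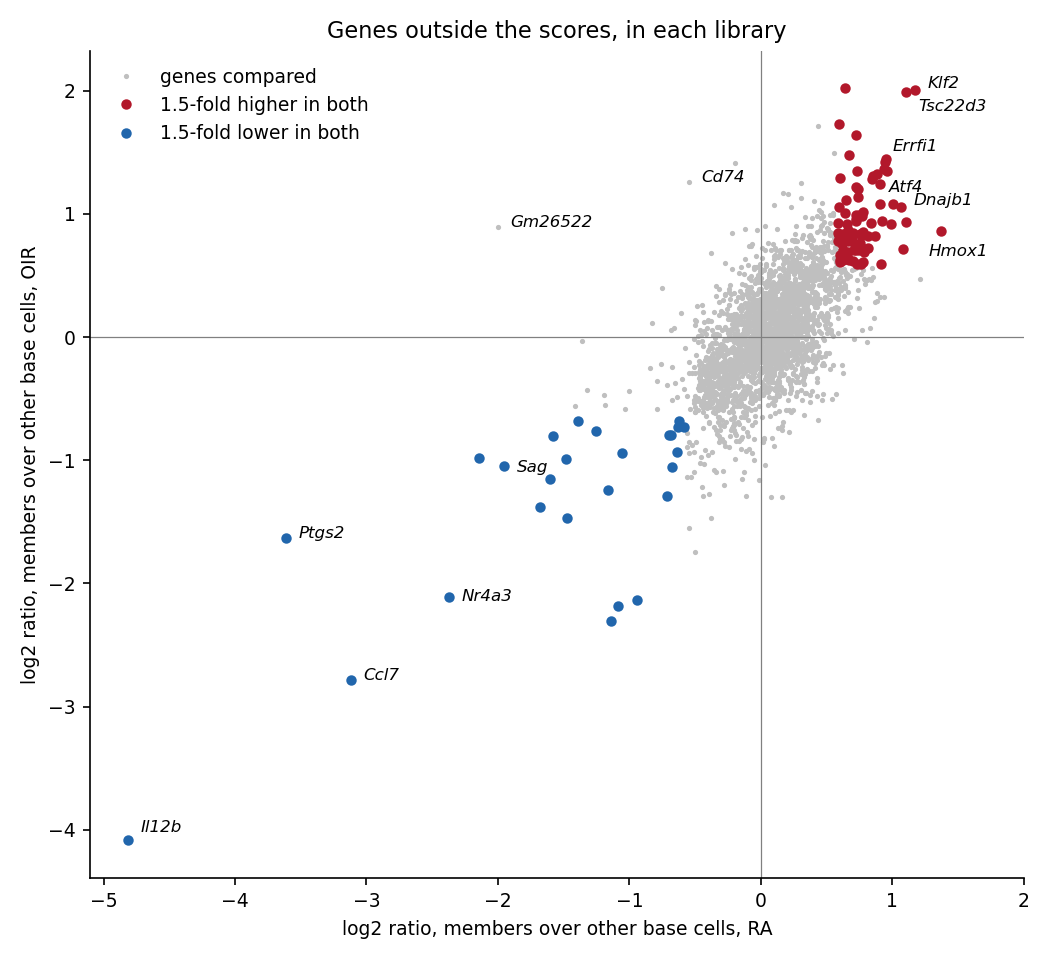
Log2 ratio of stress-high over other base microglia for 2712 genes outside the scores, RA on the horizontal and OIR on the vertical axis; red points are 1.5-fold higher in both libraries and blue points 1.5-fold lower. Klf2 and Tsc22d3 stand at the top right and Il12b, with 0 UMIs in members, at the bottom left, while Cd74 and Gm26522 lie on opposite sides of 0 in the 2 libraries.

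Immediate early genes gave the most higher genes of any list. Of 23 compared, 10 were higher and 1 was lower, beside 3.13% and 0.959% of all genes, with a median log2 ratio of 0.56 in RA and 0.64 in OIR. Against the cells low in both scores 9 of 22 were higher and 0 lower, beside 2.17% and 0.699% of all genes. Klf2, a zinc finger factor that restrains inflammatory activation, stood at 1192 against 528 CPM in RA, a log2 ratio of 1.17 (1.09 to 1.26). In OIR it stood at 2555 against 637 CPM, a log2 ratio of 2.0 (1.89 to 2.11). No other setting gave Klf2 a higher OIR ratio, and the lowest was 1.10. The median of Klf2 over cells was 646 against 199.8 CPM in RA and 971 against 366 CPM in OIR. Klf6, a related factor, stood at 1594 against 818 CPM in RA and 1985 against 781 CPM in OIR. Klf4 had log2 ratios of 0.85 and 1.3. Klf2, Klf4 and Klf6 were thus higher in stress-high microglia of both libraries.

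Jun, a subunit of the AP-1 transcription factor, stood at 5605 against 2992 CPM in RA, a log2 ratio of 0.91 (0.87 to 0.94), and at 4722 against 2229 CPM in OIR, a ratio of 1.08 (1.01 to 1.15). Its partners Junb, Jund, Fos and Fosb had log2 ratios of 0.65 to 0.79 in RA and 0.68 to 0.96 in OIR. Rhob, a stress-inducible small GTPase, stood at 2665 against 1395 CPM in RA and at 2946 against 1142 CPM in OIR. Egr3, a zinc finger factor of the same list, was the 1 lower member, and was not counted as lower against the cells low in both scores.

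**Figure D3:**
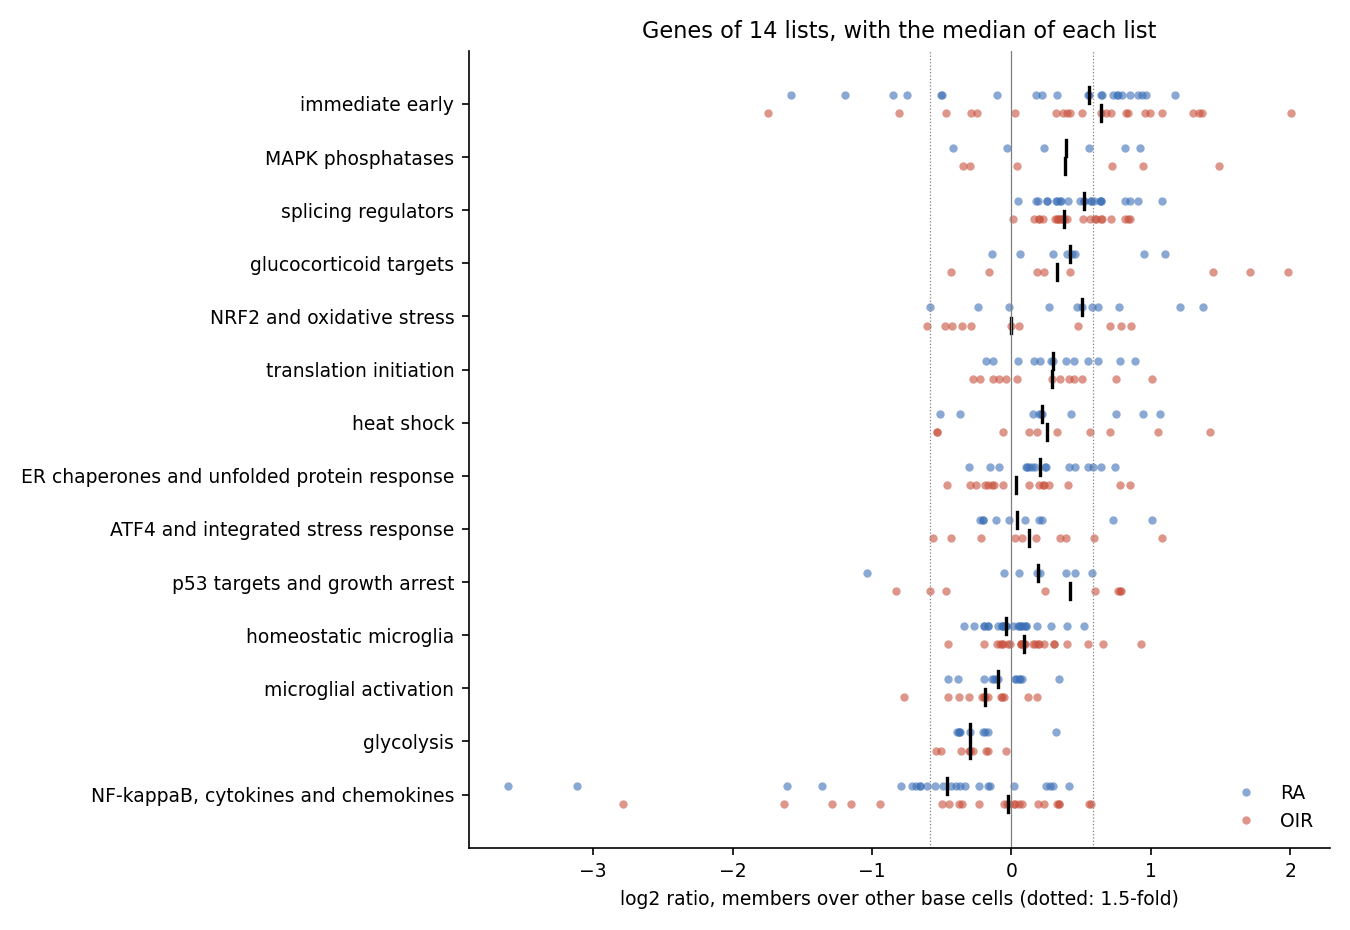
Log2 ratio of stress-high over other base microglia for the genes of 14 lists (points; blue RA, red OIR), with the median of each list as a black bar and dotted lines at 1.5-fold. Splicing regulators lie at or right of 0 in both libraries with ratios not centred, immediate early genes have the highest medians (0.56 in RA and 0.64 in OIR), and the medians of the homeostatic genes lie near 0.

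Of 28 genes listed for ATF4 and the integrated stress response, 10 had counts high enough to compare, and 2 of them were higher, both transcription factors, beside 3.13% of all genes. Atf4 stood at 498 against 248 CPM in RA, a log2 ratio of 1.01 (0.88 to 1.13). In OIR it stood at 378 against 179 CPM, a ratio of 1.08 (0.82 to 1.33). Atf4 levels in rod-like cells, 388 and 447 CPM, were of the same order. Atf3, a stress-induced factor of the same family, stood at 2707 against 1629 CPM in RA and at 1736 against 1153 CPM in OIR, log2 ratios of 0.73 and 0.59, and it was past 1.5-fold in both libraries in 7 of 15 other settings. Over the 10 the median log2 ratio was 0.04 in RA and 0.13 in OIR, near that of all genes. Among 16 chaperones and unfolded protein response genes of the endoplasmic reticulum, 1 was higher, beside 3.13% of all genes. This was the co-chaperone Dnajb9, with log2 ratios of 0.59 and 0.78, which was past 1.5-fold in both libraries in 4 of 15 other settings, and none was higher than in the cells low in both scores.

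Chaperones of the cytosol gave 2 higher genes of 10 compared, both of the HSP70 system, beside 3.13% of all genes. Dnajb1, an HSP40 co-chaperone, stood at 523 against 249.5 CPM in RA, a log2 ratio of 1.07 (0.94 to 1.19), and at 299 against 144 CPM in OIR, a ratio of 1.05 (0.77 to 1.33). Hspa1a, an inducible HSP70 gene, stood at 230.1 against 119.7 CPM in RA and at 281 against 105 CPM in OIR. Thinned to 4000 UMIs, a Hspa1a UMI was found in 46.4% of RA and 38.3% of OIR members. It was found in 34.5% (22.2 to 48.6%) of RA and 42.9% (26.3 to 60.6%) of OIR rod-like cells, so the shares in members lay within these intervals. Whether rod-like cells transcribe Hspa1a themselves or carry its RNA from other cells was not tested. Its near-identical copy Hspa1b can share reads with it, so the value of Hspa1a alone is uncertain. The median log2 ratio over the 10 genes was 0.22 in RA and 0.25 in OIR.

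Among 8 glucocorticoid targets compared, 2 were higher, beside 3.13% of all genes: Tsc22d3, known as a marker beforehand, and Errfi1. Errfi1, a feedback inhibitor of the EGF receptor, stood at 139.5 against 72.0 CPM in RA and at 82.9 against 30.5 CPM in OIR. MAP kinase phosphatases gave 2 of 6, beside the same 3.13%. Dusp8 stood at 187 against 98.8 CPM in RA and at 127 against 66.4 CPM in OIR, and Dusp1 had log2 ratios of 0.82 and 0.72. Dusp8 was also read in rod-like cells, at 208 and 301 CPM.

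Hmox1, heme oxygenase 1, was the 1 higher gene among 11 of the NRF2 and oxidative stress list, beside 3.13% of all genes. Hmox1 stood at 3064 against 1183 CPM in RA, a log2 ratio of 1.37 (1.32 to 1.42), and at 3119.7 against 1719 CPM in OIR, a ratio of 0.86 (0.77 to 0.94). The median over cells was 2350.3 against 283 CPM in RA and 2015 against 357 CPM in OIR, so the difference did not rest on a few cells. The list as a whole had a median log2 ratio of 0.51 in RA and -0.01 in OIR.

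All 23 splicing regulators compared had a positive ratio in both libraries, with the lowest, 0.05 in RA and 0.01 in OIR, below the median of all genes, so that not all stay positive when ratios are centred on it. Of the 23, 4 reached 1.5-fold in both, beside 3.13% of all genes, and against the cells low in both scores 3 did so, beside 2.17%. The median log2 ratio was 0.52 in RA and 0.38 in OIR. Srsf2, an SR protein of the spliceosome, stood at 555 against 262 CPM in RA and at 455 against 278 CPM in OIR. Ccnl1, Srsf7 and Rsrp1 were the others. Of 13 translation initiation genes 2 were higher (Eif4a2 and Eif5), beside 3.13% of all genes, and 1 against the cells low in both scores. Of these, Eif4a2 kept this under 4 of 15 other settings. The 9 glycolytic genes had a median log2 ratio of -0.29 in RA and -0.30 in OIR, with 1 positive ratio in RA and 0 in OIR. None of these, 8 p53 targets, 8 HIF targets or 6 apoptosis regulators reached 1.5-fold in both libraries, counts too small to set against the 3.13% of all genes. Against the cells low in both scores 1 of 8 p53 targets was higher, beside 2.17%. This was Cdkn1a, with log2 ratios of 0.64 in RA and 0.95 in OIR. Of 80 ribosomal protein genes 0 reached 1.5-fold in both libraries, although their median log2 ratio was -0.39 in RA and -0.37 in OIR.

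The other higher genes named by size of ratio have varied roles. Plau, the urokinase plasminogen activator, stood at 70.1 against 32.6 CPM in RA and at 129 against 67.6 CPM in OIR. Jmjd6, an arginine demethylase and lysyl hydroxylase, stood at 106 against 53.3 CPM in RA and at 91.0 against 48.2 CPM in OIR. Gm46224, a predicted gene, stood at 101 against 54.1 CPM and at 127 against 54.0 CPM. In all, 27 of the 85 higher genes were in a list and 58 were in none. Of the 58, Chka, a choline kinase, and Creb5, a CREB family factor, were picked out after their values were seen for their log2 ratios in OIR, 2.02 and 1.73, against 0.64 and 0.60 in RA.

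Cytokine and chemokine genes were among the lower genes, a direction that the rule fixes in part by leaving out cytokine-high cells. Il12b, a subunit of the cytokines IL-12 and IL-23, had 0 UMIs in stress-high microglia of both libraries against 50.9 CPM in the other RA and 103 CPM in the other OIR base microglia. With members set at a floor of 3 UMIs, it was 28.1-fold lower in RA and 17.0-fold lower in OIR. The exact intervals allow log2 ratios up to -4.50 in RA and -3.78 in OIR. Il12b counted as lower in 11 of 15 other settings, where its OIR log2 ratio lay between -4.30 and -1.11. Ccl7, a monocyte chemoattractant, stood at 24.8 against 215 CPM in RA and at 48.6 against 335 CPM in OIR, although 1 cell supplied 34.2% and 29.2% of its UMIs in members. Nr4a3, an orphan nuclear receptor, stood at 24.8 against 128 CPM in RA and at 24.3 against 105 CPM in OIR. Ptgs2, cyclooxygenase 2, stood at 5.44 against 66.4 CPM in RA and at 40.5 against 125 CPM in OIR.

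Against the base microglia low in both scores, the log2 ratio of Ccl7 was -2.21 in RA and -2.48 in OIR, that of Nr4a3 -1.36 and -1.82, and both were again past 1.5-fold. The log2 ratio of Ptgs2 was -2.56 and -1.31, and Il12b stood at 11.4 and 60.6 CPM in those cells against 0 UMIs in members. Ptgs2 and Il12b were below 50 CPM in both RA groups there, so they were not among the genes counted. Against all other base microglia, of 24 genes of NF-kappaB, cytokines and chemokines outside the rule, 4 were lower (Ccl7, Cxcl2, Tnfaip2 and Ptgs2) and 0 higher, beside 0.959% and 3.13% of all genes, and the median log2 ratio was -0.46 in RA and -0.03 in OIR. Against the cells low in both scores 2 of 23 were lower and 0 higher, beside 0.699% and 2.17% of all genes, with medians of -0.18 in RA and 0.13 in OIR. Abundant chemokines were not absent from these cells. Ccl3 stood at 4222 CPM in RA and 5434 CPM in OIR members, and Ccl4 at 5972 and 6209 CPM. The 13 microglial activation genes gave 0 higher and 0 lower, beside 3.13% and 0.959% of all genes, a list too short to read anything from this.

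Other lower genes by the naming rule were Bcl2a1a, an anti-apoptotic gene whose family copies share reads, Arl5c, Mthfsl, Tnfaip2, Prdm1, Ifitm3 and the rod gene Sag. Ifitm3 had a log2 ratio of 1.11 in OIR, the opposite direction, when members were chosen within depth classes. Arl5c, a small GTPase gene, stood at 132 against 422 CPM in RA and at 259 against 674 CPM in OIR. Prdm1, a transcriptional repressor, stood at 42.9 against 91.3 CPM in RA and at 12.1 against 55.2 CPM in OIR.

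Levels were also followed over 4 bins of 25% of the base microglia by the stress score, with cytokine-high cells left out, where bin 4 is the stress-high microglia. In RA these bins held 96, 125, 137 and 166 cells, and in OIR 47, 48, 58 and 60 cells. Klf2 stood at 317, 519, 963 and 1192 CPM from bin 1 to bin 4 in RA, and at 502, 758, 880 and 2555 CPM in OIR. In OIR most of the difference thus lay between the last bins. Hmox1 stood at 498, 1206, 2532 and 3064 CPM in RA and at 1280, 1379, 2885 and 3119.7 CPM in OIR, and was already high in bin 3. Gapdh, a glycolytic enzyme, stood at 702, 725, 633 and 631 CPM in RA and at 2496, 2184, 1581 and 1398 CPM in OIR. Summed ribosomal protein transcripts were at 152893 CPM in bin 1 and 105093 CPM in bin 4 in RA, and at 81776 and 58529 CPM in OIR.

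**Figure D4:**
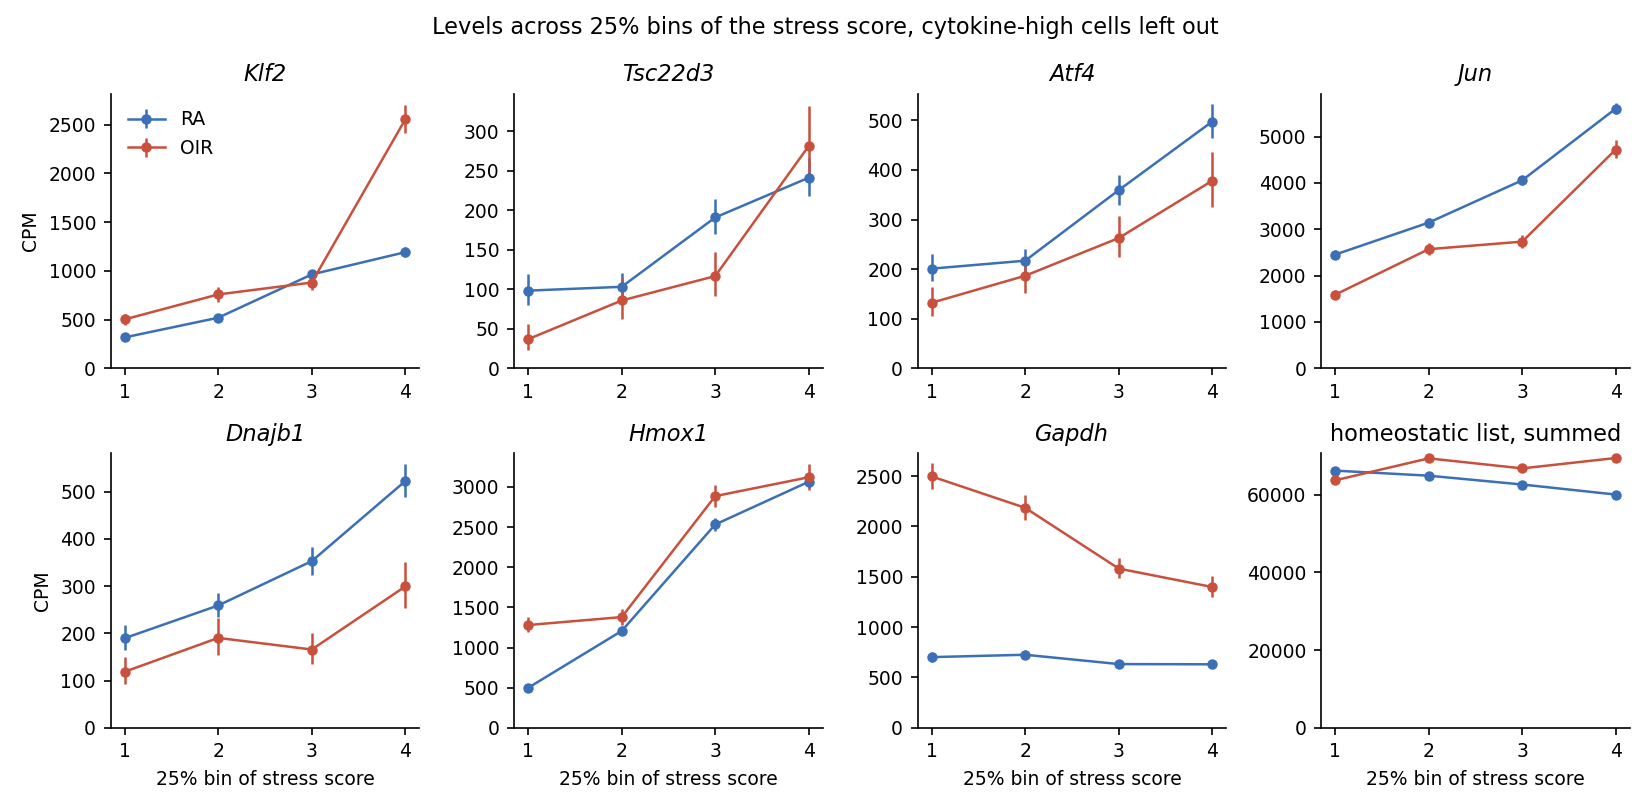
Levels of 7 genes and of the summed homeostatic list (vertical axes from 0, CPM) by 25% bin of the stress score within each library, with cytokine-high cells left out (blue RA, red OIR; bars, 95% exact Poisson intervals). Klf2, Tsc22d3, Atf4, Jun, Dnajb1 and Hmox1 are highest in bin 4, and Gapdh in OIR is lowest there (1398 CPM). From bin 1 to bin 4 the homeostatic sum goes from 66223 to 60059 CPM in RA and from 63728 to 69474 CPM in OIR.

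Promoters of the higher genes were searched for short motifs in RefSeq sequence (assembly GRCm38.p6), taking the 250 bases before each listed start on both strands. The table held 68 of the 85 higher genes. The cAMP response element TGACGTCA, bound by CREB and ATF family factors, was in 10 of these 68 (14.7%), against 3.73% of 2171 genes compared and 1.77% of all 27025 genes. The 10 were Btg2, Ccnl1, Creb5, Dusp1, Dusp8, Errfi1, Flcn, Tubb2a, Wsb1 and Zbtb11. The heat shock element core GAANNTTC was in 5 of 68 (7.35%), against 6.17% of genes compared and 7.73% of all genes. The AP-1 motif TGANTCA was in 4 (5.88%), against 5.8% and 7.82%, and the glucocorticoid receptor motif AGAACA in 6 (8.82%), against 12.4% and 18.2%. The C/EBP-ATF motif TGATGCAA and the NF-kappaB motif GGGANTTCC were in 1 gene each (1.47%), against 0.921% and 2.4% of genes compared and 0.918% and 1.63% of all genes. Creb5 was counted for both TGACGTCA and TGANTCA, and Gmip for both GAANNTTC and AGAACA. A match is a run of letters and not a measured binding site.

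A few promoters are printed to show where these letters lie among genes described above, with the matched motif in capitals and 5′ to 3′ along the gene's strand. Dusp8 (chr7:142095285-142095534, minus strand) holds TGACGTCA at positions -107 and -63, counted from the start. Errfi1 (chr4:150854820-150855069, plus strand, the downstream one of its 2 listed starts) holds it at -51. Hspa1a (chr17:34972157-34972406, minus strand) holds GAANNTTC at -104, and Ddit3 (chr10:127290543-127290792, plus strand), a score gene, holds TGANTCA at -242.
Dusp8: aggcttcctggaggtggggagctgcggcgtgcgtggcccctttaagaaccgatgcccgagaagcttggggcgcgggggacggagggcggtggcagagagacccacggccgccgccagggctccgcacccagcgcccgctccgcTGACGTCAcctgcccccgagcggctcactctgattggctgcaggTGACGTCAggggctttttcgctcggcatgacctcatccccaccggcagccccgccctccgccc
Errfi1: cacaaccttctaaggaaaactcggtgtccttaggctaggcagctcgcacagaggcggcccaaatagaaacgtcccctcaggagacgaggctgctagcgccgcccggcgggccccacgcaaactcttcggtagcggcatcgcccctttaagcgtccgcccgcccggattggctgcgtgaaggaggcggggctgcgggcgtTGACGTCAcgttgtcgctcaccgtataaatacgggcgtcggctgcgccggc
Hspa1a: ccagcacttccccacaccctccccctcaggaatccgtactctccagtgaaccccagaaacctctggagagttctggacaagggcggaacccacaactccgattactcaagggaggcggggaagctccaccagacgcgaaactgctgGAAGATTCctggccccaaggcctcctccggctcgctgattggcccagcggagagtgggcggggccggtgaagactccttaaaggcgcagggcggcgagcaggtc
Ddit3: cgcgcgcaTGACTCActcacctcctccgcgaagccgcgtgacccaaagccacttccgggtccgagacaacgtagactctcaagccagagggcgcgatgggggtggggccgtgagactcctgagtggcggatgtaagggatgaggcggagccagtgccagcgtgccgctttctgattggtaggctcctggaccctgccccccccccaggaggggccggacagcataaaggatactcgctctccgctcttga

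The threshold of the RA library was passed by 44 of 285 OIR base microglia, 15.4% (11.4 to 20.2%), where it was passed by 25% in RA by construction. Because the threshold was lower in OIR, the lower levels of the score genes in OIR members follow in part from the choice of cells, and nothing is read from them. Klf2 was higher in OIR members by a log2 ratio of 1.10 (1.0 to 1.2), against 0.27 (0.18 to 0.36) in the other base microglia. In OIR members 1 cell held 11.3% of its UMIs, and its log2 ratio over the other OIR base microglia was as low as 1.10 in other settings. The difference between members and other base microglia was not tested. Tsc22d3 had a ratio of 0.22 (-0.07 to 0.50) in members and -0.66 (-0.91 to -0.42) in the other base microglia.

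Between OIR and RA stress-high microglia, genes with at least 3 UMIs in the members of both libraries and 50 CPM in 1 were compared, which leaves out a gene such as Lyz2, with 0 UMIs in RA members and 534 CPM in OIR members. Of 3310 such genes, 523 were at least 1.5-fold higher in OIR (15.8%) and 490 were lower (14.8%). With ratios centred on the median gene these counts were 423 and 566, and without ribosomal protein and mitochondrial UMIs 439 and 648. Of the genes named by size of ratio, every one except Gm26522 had a ratio of the same sign in the other base microglia, although the interval of H2-Ab1 there spanned 0. Hcar2, the receptor of niacin and hydroxybutyrate, stood at 9.06 CPM in RA and 111 CPM in OIR members, a log2 ratio of 3.62 (2.77 to 4.55), against 2.49 (2.15 to 2.85) in the other base microglia. In OIR members 1 cell held 43.6% of its 55 UMIs. Tnfsf9, the ligand of 4-1BB, stood at 5.44 and 64.7 CPM, with 44% of its UMIs in 1 cell in each library. Cst7, cystatin F, stood at 11.5 and 76.9 CPM, and Vim, vimentin, at 18.7 and 115 CPM. Cd72, a B cell and microglial surface receptor, stood at 34.4 and 178 CPM, with log2 ratios of 2.37 in members and 2.35 in the other base microglia.

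Ccl2, the ligand of the monocyte receptor CCR2, stood at 518 CPM in RA and 2100.0 CPM in OIR members, a log2 ratio of 2.02 (1.89 to 2.15). In the other base microglia the ratio was 0.69 (0.64 to 0.74). In OIR members 1 cell held 24.4% of the Ccl2 UMIs. Its median over cells was 100 CPM in RA and 541 CPM in OIR members, and 361 and 972 CPM in the other base microglia. H2-Ab1, an MHC class II chain, stood at 18.1 and 68.8 CPM in members. Its ratios were 1.92 in members and 0.22 (-0.13 to 0.56) in the other base microglia, and 1 OIR member held 32.4% of its 34 UMIs. Gm26522, a predicted gene, stood at 42.9 and 190.2 CPM in members, while its ratio in the other base microglia was -0.74. The 3 cytokine genes of the rule, Il1b, Tnf and Ccrl2, summed to 1270.3 CPM in RA and 2969.96 CPM in OIR members, where the limit that kept cytokine-high cells out was also higher, 8479.8 against 5259 CPM. Of 10 glycolytic genes 9 were higher in OIR members, beside 15.8% of all genes, with a median log2 ratio of 1.19, against 1.31 in the other base microglia. Glycolytic transcripts were thus higher in OIR in stress-high and other base microglia alike. They were also abundant in rod-like cells, where Gapdh stood at 3929.8 CPM in RA and 6452 CPM in OIR, and the part of rod RNA in the microglial values was not tested.

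Of 81 ribosomal protein genes, which encode parts of the ribosome, 57 were lower in OIR members and 4 higher, beside 14.8% and 15.8% of all genes. Their median log2 ratio was -1.28 in members and -1.26 in the other base microglia. Snrpg, a core spliceosome protein, stood at 108 CPM in RA and 10.1 CPM in OIR members, a log2 ratio of -3.41 (-5.05 to -2.16). Rod-like cells, which are not microglia, had the same direction for Snrpg, at 88.0 and 14.6 CPM. Atp5k and Usmg5, subunits of the mitochondrial ATP synthase, had ratios of -3.01 and -2.54, Tomm7, of the outer membrane import complex, -2.54, and Tmsb10, an actin-binding thymosin, -2.82. Gm11808 and AC160336.1, at -3.30 and -2.75, are loci without a gene name. Mt1, a metallothionein, stood at 539 and 101 CPM, a ratio of -2.41 (-2.85 to -2.0). Of 25 homeostatic genes, 6 were higher in OIR members (Olfml3, Fcrls, Crybb1, C1qa, C1qb and C1qc) and 2 lower (Cx3cr1 and Slc2a5), beside 15.8% and 14.8% of all genes, and nothing particular to the list is read from these counts.

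**Figure D5:**
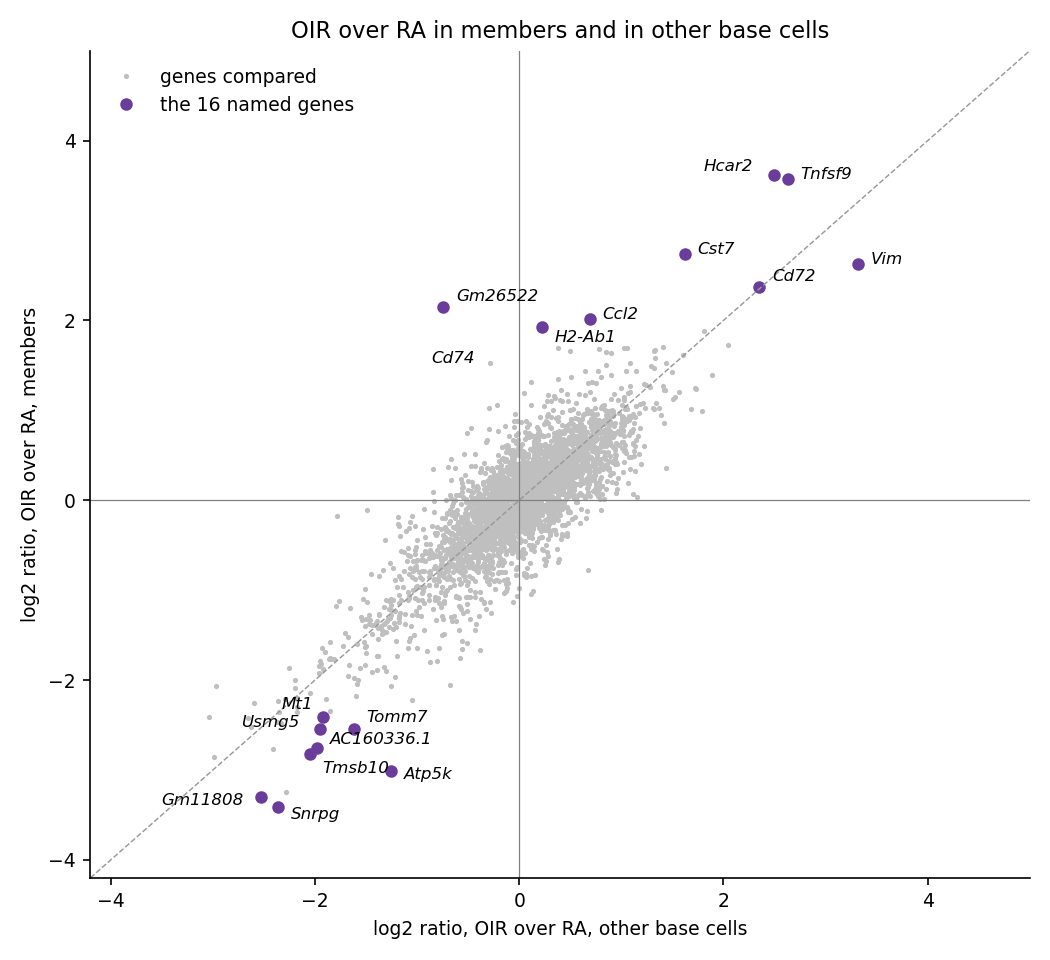
Log2 ratio of OIR over RA for 3310 genes in other base microglia (horizontal axis) and in stress-high microglia (vertical axis), with the 8 highest and 8 lowest genes outside ribosomal protein genes in purple and a dashed line of equal ratios. Cd72 lies on the line, and Ccl2, H2-Ab1 and Gm26522 lie above it.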

How the data were processed

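Counts of UMIs per gene and cell were used as the authors deposited them, unnormalized, for 31017 features in 1 RA and 1 OIR library. The authors made them with Cell Ranger 3.1.0 (per the file headers) from 10x Chromium 3′ v3 libraries, with build mm10 and Seurat 4.0 named in the submitters' processing notes. The members, gene lists and comparisons were chosen with earlier results of these data known. All columns of values matched a sample (0 left out).

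Group levels are summed counts per 1000000 UMIs (CPM), with 95% exact Poisson, conditional or Clopper-Pearson binomial intervals. With 1 library per condition and cells that are not replicates, no test between groups was run, and a gene counted as different at 1.5-fold. Rod-like cells had at least 1% of UMIs from rod genes, no UMI of Cx3cr1, Csf1r or C1qa, and at most 20% of mitochondrial UMIs. The named genes were the 12 highest and 12 lowest by the smaller ratio of both libraries, the 8 highest and 8 lowest between OIR and RA with at least 3 UMIs in both, up to 4 genes per list, and the score and marker genes, and a few of these are not reported here. Scrublet called 4 RA cells (0.276%) and 2 OIR cells (0.159%) doublets, 1 of them a member, which were kept. In all, 17 alternative settings were run. Ratios and intervals were checked on simulated counts. These had no variation between cells and no choice of cells by score, so the check covers counting error only. Python 3.11.15, numpy 2.4.6, scipy 1.17.1, pandas 2.3.3, scanpy 1.11.5, anndata 0.12.19 and matplotlib 3.10.9 were used.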

Additional observations from a re-analysis of the deposited data

Results flagged for a closer look

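A few results had opposite directions in the libraries, and these differences between libraries were not tested. Cd74, the MHC class II invariant chain, had a log2 ratio of stress-high over other base microglia of -0.55 (-0.78 to -0.32) in RA and 1.26 (0.98 to 1.53) in OIR. The OIR ratio of Cd74 was 0.022 with the top 10% by the stress score as members, 0.13 with members chosen within depth classes and 0.17 with the threshold of the RA library in both, so its size in OIR moved with which cells were chosen. Its levels were 115 against 168 CPM in RA and 329.8 against 138 CPM in OIR, where 33 of 60 members held a UMI and 1 cell supplied 33.1% of the UMIs. The 4 MHC class II genes summed to 133 against 232 CPM in RA, a log2 ratio of -0.80, and to 425 against 181 CPM in OIR, a ratio of 1.23. The 8 macrophage genes were also higher by sum in OIR members, 221 against 151 CPM, and their part in these ratios was not tested. Between OIR and RA the summed MHC class II genes had a log2 ratio of 1.68 in stress-high microglia and -0.36 in the other base microglia. Gm26522, a predicted gene, had ratios of -2.0 in RA and 0.89 in OIR. Ccl4, a chemokine of activated microglia, had ratios of -0.66 in RA and 0.076 in OIR.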

How the results depend on the processing

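Counts of genes 1.5-fold higher in members, 85, became 47 when members were chosen within 5 classes of cells by depth, 56 without ribosomal protein and mitochondrial UMIs, 54 with centred ratios, 169 at 20 CPM and 4 at 2-fold. Counts of lower genes, 26, became 56 with the top 10% of cells, 45 with cells chosen and measured on separate UMIs, 49 without ribosomal protein and mitochondrial UMIs, 40 with centred ratios, 57 at 20 CPM and 11 at 2-fold. Between OIR and RA members, 523 higher genes became 1059 at 20 CPM and 105 at 2-fold, and 490 lower genes became 947 and 210. The share of OIR base microglia past the RA threshold, 15.4%, was 5.26% with the threshold of the top 10% of RA cells and lay between 12.2% and 19.3% otherwise. The other 62 values of these counts and this share over the settings stayed within 1.5 times or within counting error. Of the ratios of single genes and lists over the settings, 4241 stayed within counting error, 1119 moved by more, and 2 reversed. Ifitm3 turned to a log2 ratio of 1.11 in OIR (members over other base microglia, depth classes) and to -1.32 (OIR over RA members, RA threshold in both libraries). The causes were not tested. Klf2, Tsc22d3, Atf4, Klf6, Errfi1, Hspa1a, Rhob, Jun and Hmox1 stayed past 1.5-fold in both libraries in 15 of 15 settings that keep this threshold. Dnajb1 and Rsrp1 did so in 14, Dusp1, Srsf2 and Jmjd6 in 13, Ccnl1 in 12, Junb in 11, Atf3 in 7, and Dnajb9 and Eif4a2 in 4. Rsrp1, Dusp1, Srsf2 and Jmjd6 each lost it when members were chosen within depth classes. Depth limited genes under 50 CPM, the OIR members (60 cells) and Ddit3 in OIR (54 UMIs). With pooled retinas and 1 library per condition, the spread between animals is unknown.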

Other observations

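These values were looked at after the comparisons had been seen. Lyz2, a lysozyme gene of myeloid cells, had 54 UMIs in the whole RA library (4.22 CPM) and 13765 in the OIR library (1399.5 CPM). Stress-high microglia had 0 UMIs in RA and 534 CPM in OIR, and the other base microglia had 0.481 and 829 CPM. Among cells with at least 3 UMIs of Mrc1 and Pf4, 116 in RA and 172 in OIR, Lyz2 stood at 18.9 and 2073 CPM. Rod-like cells had 0 UMIs in RA and 14.6 CPM in OIR.

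Both libraries held cells of both sexes. A UMI of Xist and none of 4 Y-linked genes was found in 61 of 166 RA stress-high microglia (36.7%) and 34.7% of the other RA base microglia, and in 24 of 60 (40.0%) and 34.2% in OIR. Y-linked transcripts alone were found in 52.4% and 52.0% in RA and in 46.7% and 52.0% in OIR. Sex shares in members and other base microglia thus lay within each other's counting intervals in both libraries.

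Rpl41, a ribosomal protein gene, stood at 2036 CPM in RA and 354 CPM in OIR stress-high microglia, at 2632 and 425 CPM in the other base microglia, and at 1725 and 237 CPM in rod-like cells.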
